A study of Mus musculus with 20 samples.

Results

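The 10 genes described here encode the constant parts of mouse antibodies and the J chain. They were chosen by name: the 8 heavy chain constant genes Ighm, Ighd, Ighg1, Ighg2b, Ighg2c, Ighg3, Igha and Ighe, the kappa light chain constant gene Igkc, and Jchain. They make up 10 of the 55421 genes counted in each library, and all 10 passed the filter on low counts in each comparison. In whole aortas of 28-month-old mice, 8 of the 10 were higher than at 2 months over both genotypes, with the IgG genes 15.7 to 191-fold higher, where 9.82% of all tested genes were called higher. Ighd and Igha did not pass that test. Airway markers were higher at 28 months too, and 4 of the 10 were called without the libraries that held the airway gene Scgb1a1 or with the airway or adipocyte marker mean as a covariate. In that order, these fits called 70 of 26938, 75 of 23624 and 200 of 23624 tested genes higher.

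RNA sequencing was done on total RNA of 20 entire aortas from C57BL/6 mice, in 4 groups of 5. The groups were the Ppara△SMC knockout at 28 months, Pparafl/fl controls at 28 months, the knockout at 2 months, and Pparafl/fl controls at 2 months. By their names, both genotypes derive from floxed Ppara, and the knockout lacks it in smooth muscle cells. Ppara encodes a nuclear receptor for fatty acids. The labels name neither the Cre line nor the sex, and do not say whether each sample is 1 mouse, so p-values measure the spread between these samples. Replicates were numbered 1 to 5 in the order of deposition only.

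A B cell first makes IgM and IgD from 1 shared transcription unit, in which splicing joins the same variable region to Ighm or Ighd. After activation, class switch recombination moves that variable region in front of an IgG, IgA or IgE constant gene, so the heavy chain transcript names the class a cell makes. Plasma cells, the end stage of this path, fill themselves with immunoglobulin RNA and secrete antibody. The J chain links secreted IgM and IgA into polymers, and plasma cells of other classes transcribe it too. In the aorta, B cells and plasma cells are known mainly from the surrounding fat and adventitia.

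The 8 heavy chain genes lie on the minus strand of chromosome 12 in GRCm38, from Ighm at chr12:113418558-113422730 and Ighd at chr12:113406604-113416324 to Igha at chr12:113254830-113260236. Between them lie Ighg3 at chr12:113356224-113361232, Ighg1 at chr12:113325240-113330523, Ighg2b at chr12:113302965-113307933, Ighg2c at chr12:113285325-113288932 and Ighe at chr12:113269260-113273248. Igkc lies at chr6:70726435-70726966 on the plus strand and is a single exon of 532 bases, while Jchain lies at chr5:88519809-88527891 on the minus strand.

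The 4 IgG genes are the members called in every such fit over both genotypes, and their hinge exons show how far the subclasses differ in sequence. The hinge joins the antigen-binding arms to the stem, and its cysteines hold the paired heavy chains together. The reference hinge exons are printed 5′ to 3′ on the coding strand, with the in-frame cysteine codons in capitals.
Ighg1, chr12:113329844-113329882: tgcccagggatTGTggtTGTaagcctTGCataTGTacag
Ighg2b, chr12:113307261-113307326: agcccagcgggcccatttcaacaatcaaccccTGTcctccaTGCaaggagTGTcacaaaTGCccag
Ighg2c, chr12:113288263-113288325: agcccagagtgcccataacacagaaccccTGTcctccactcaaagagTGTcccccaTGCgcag
Ighg3, chr12:113360529-113360576: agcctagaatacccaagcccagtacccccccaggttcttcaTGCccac
The exons run from 39 to 66 bases and hold 4 cysteine codons in Ighg1 and Ighg2b, 3 in Ighg2c and 1 in Ighg3.

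Because a read that matches more than 1 gene cannot be assigned, the secreted-form transcripts were also compared base by base. Of the 10 genes, Ighg2b and Ighg2c were the pair that shared any stretch of 50 bases. They shared 56 such words, 5.26% of those in Ighg2b and 5.27% of those in Ighg2c. Their longest common run is the following 78 bases in exon 3 of both, here with no capitals.
Ighg2b, chr12:113306869-113306946: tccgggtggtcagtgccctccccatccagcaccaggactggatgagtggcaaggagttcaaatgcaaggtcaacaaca
Ighg2c, chr12:113287869-113287946: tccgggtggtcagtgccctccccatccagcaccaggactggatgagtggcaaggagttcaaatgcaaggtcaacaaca
Counts of Ighg2b and Ighg2c are therefore uncertain by the reads that fall wholly within shared stretches, of which this run is the longest, and the other 8 genes share no such word.

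Each library held 50046288 to 79385413 counts. Levels are given as CPM, counts divided by library size with TMM scaling factors. Ppara averaged 77.0 ± 20.8 CPM in knockout and 71.2 ± 26.0 CPM in Pparafl/fl aortas at 28 months, and 102 ± 24.6 CPM in knockout and 128 ± 41.7 CPM in Pparafl/fl aortas at 2 months (SD, n = 5 each, scaled within each pair). Neither difference passed the test (log2 fold changes 0.11, edgeR adjusted p = 0.9998, and -0.33, edgeR adjusted p = 0.664), and the genotypes overlapped in these counts over the whole gene. Summed contractile smooth muscle markers spanned 220 to 680 CPM at 28 months and 871 to 9278 CPM at 2 months, and all 8 fell with age. Scgb1a1, the club cell secretoglobin of airways, exceeded 1 CPM in 9 libraries: replicates 1 to 4 of the knockout and replicates 1 to 4 of Pparafl/fl at 28 months, and replicate 1 of the knockout at 2 months. Results that rest on those libraries are also given without them. Of 15 airway markers, Scgb3a2 alone was at 0 in all 5 libraries of a group, Pparafl/fl at 2 months.

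Ighg2c, the subclass that takes the place of IgG2a in C57BL/6 mice, had the smallest standard error of the 4 IgG genes. It had 528, 451, 289, 3551 and 555 CPM in knockout aortas and 516, 670, 2087, 465 and 869 CPM in Pparafl/fl aortas at 28 months. At 2 months it had 1.93, 20.1, 10.2, 7.16 and 4.81 CPM in knockout aortas and 20.2, 16.01, 21.99, 12.04 and 23.2 CPM in Pparafl/fl aortas. All 10 aged libraries lay above all 10 young ones, as did those of Ighg1 and Ighg2b, against 0.389% of all tested genes so higher and 0.804% so lower. Over both genotypes the log2 fold change of Ighg2c was 6.30 (SE 0.60, edgeR adjusted p = 6e-06). The library values are scaled over the 20 libraries, and edgeR's quasi-likelihood test was used throughout with Benjamini-Hochberg adjustment over all genes tested.

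Ighg2b, the neighbouring IgG gene, had 471, 315, 250, 3987 and 1001 CPM in knockout aortas and 522, 234, 2886, 1302 and 1132 CPM in Pparafl/fl aortas at 28 months. At 2 months it had 1.53, 24.4, 12.4, 1.41 and 8.99 CPM in knockout aortas and 39.2, 32.8, 34.9, 50.9 and 73.4 CPM in Pparafl/fl aortas. Replicate 4 of the aged knockout and replicate 3 of aged Pparafl/fl were the highest. The log2 fold change with age over both genotypes was 5.86 (SE 0.78, edgeR adjusted p = 0.000102).

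Ighg1, the class typical of responses to soluble protein antigens, had the largest standard error of the IgG genes. It had 1396, 354, 83.1, 979 and 843 CPM in knockout aortas and 24.5, 207, 2866, 240 and 810 CPM in Pparafl/fl aortas at 28 months. At 2 months it had 0, 2.80, 6.03, 0.0620 and 1.40 CPM in knockout aortas and 3.51, 5.52, 9.50, 18.6 and 5.25 CPM in Pparafl/fl aortas. The lowest aged library, replicate 1 of Pparafl/fl, stood just above the highest young one, and the count of 0 allows up to 3 counts, or 0.0568 CPM, in replicate 1 of the young knockout (counting error only). Over both genotypes the log2 fold change was 7.58 (SE 1.07, edgeR adjusted p = 0.000162).

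Ighg3, a subclass often raised against carbohydrate antigens, was the one IgG gene whose aged and young libraries overlapped. It had 82.97, 5.53, 4.93, 63.5 and 26.9 CPM in knockout aortas and 147, 24.1, 96.7, 71.9 and 346 CPM in Pparafl/fl aortas at 28 months. At 2 months it had 0.474, 6.95, 4.22, 0.0620 and 2.08 CPM in knockout aortas and 6.59, 5.38, 7.13, 9.43 and 9.31 CPM in Pparafl/fl aortas. Replicates 2 and 3 of the aged knockout lay within the young range, and the log2 fold change over both genotypes was 3.97 (SE 0.69, edgeR adjusted p = 0.000804).

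**Figure D1:**
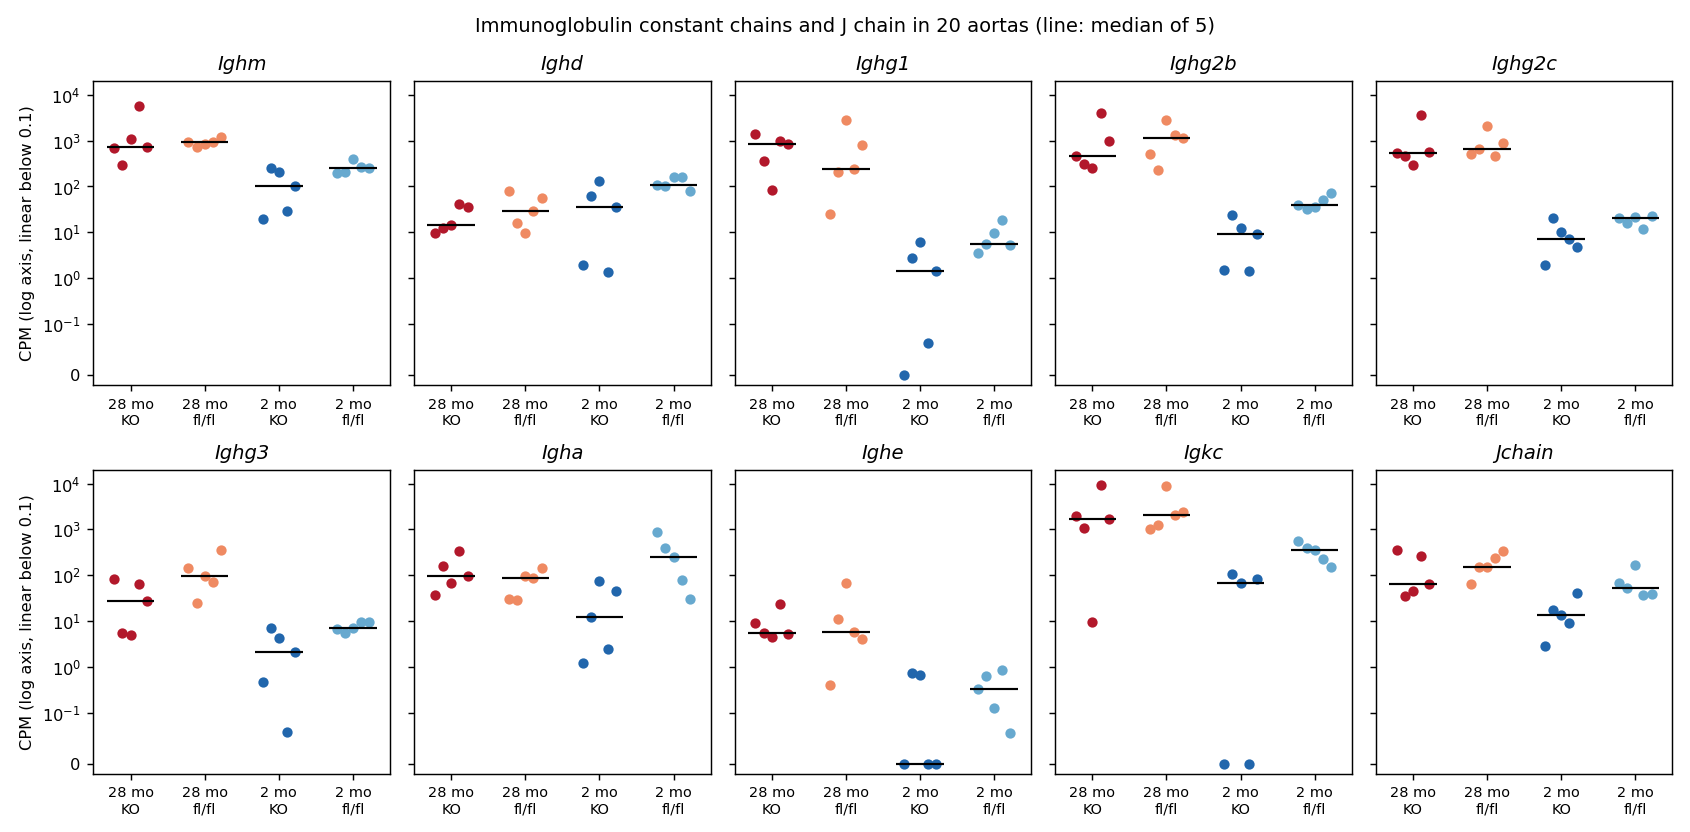
Scaled counts, CPM (log axis, linear below 0.1) of the 10 genes in each library, by group, where KO is the knockout and fl/fl Pparafl/fl. Points are libraries and the line is the median of 5. Ighg1, Ighg2b and Ighg2c have no overlap between 28 and 2 months, while Igha and Ighd overlap.

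Ighm, the mu chain of the first antibody class, was present at every age. It had 693, 292, 1086, 5832 and 733 CPM in knockout aortas and 938, 742, 856, 951 and 1178 CPM in Pparafl/fl aortas at 28 months. At 2 months it had 19.9, 256, 207, 28.8 and 104 CPM in knockout aortas and 197, 203, 399, 266 and 248 CPM in Pparafl/fl aortas. Of the aged libraries, 9 of 10 lay above every young one, replicate 2 of the knockout being the exception, and the log2 fold change over both genotypes was 2.83 (SE 0.58, edgeR adjusted p = 0.00264). Within Pparafl/fl, where replicates were closest, Ighm averaged 933 ± 160 CPM at 28 months and 263 ± 81.7 CPM at 2 months (SD, n = 5 each).

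Ighd, the delta chain that naive B cells co-express with mu, did not follow Ighm. It had 9.65, 12.4, 14.3, 41.1 and 35.3 CPM in knockout aortas and 80.2, 16.1, 9.49, 29.5 and 57.1 CPM in Pparafl/fl aortas at 28 months. There were 1.93, 61.7, 129, 1.35 and 36.4 CPM in young knockout aortas and 108, 105, 164, 158 and 78.1 CPM in young Pparafl/fl aortas. In Pparafl/fl, 4 of 5 aged libraries lay below every young one, and in the knockout every aged library lay within the young range. The log2 fold change over both genotypes was -1.35 (SE 0.60) and did not pass (edgeR adjusted p = 0.127), but it was -1.70 (edgeR adjusted p = 0.0107) without knockout replicates 1 and 4 at 2 months, an alternative added after seeing the data.

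Divided by transcript length, the IgM to IgD ratio had a median of 38.6 in knockout and 17.3 in Pparafl/fl aortas at 28 months, and of 2.23 in knockout and 1.04 in Pparafl/fl aortas at 2 months. It ranged from 11.2 to 76.3 in the aged and from 0.861 to 11.5 in the young knockout, so the ages overlapped there at the edge. In Pparafl/fl it ranged from 6.28 to 48.5 at 28 months and from 0.906 to 1.71 at 2 months, with no overlap. These ratios are described and were not tested, as the genes were chosen with earlier results of these data known.

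Igha, the alpha chain of mucosal antibody, went different ways in different libraries. It had 37.0, 157, 67.6, 332 and 98.2 CPM in knockout aortas and 30.3, 28.7, 94.5, 88.0 and 147 CPM in Pparafl/fl aortas at 28 months. There were 1.21, 11.96, 76.5, 2.49 and 44.7 CPM in young knockout aortas and 872, 385, 252, 79.0 and 30.3 CPM in young Pparafl/fl aortas. The highest and the next highest of the 20 values were in young Pparafl/fl and the lowest in the young knockout. The log2 fold change with age over both genotypes was 0.16 (SE 1.05, edgeR adjusted p = 0.940).

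Jchain followed Ighm more than Igha. It had 352, 35.3, 45.0, 267 and 65.1 CPM in knockout aortas and 65.4, 152, 153, 236 and 332 CPM in Pparafl/fl aortas at 28 months. There were 2.84, 17.0, 13.8, 8.92 and 41.4 CPM in young knockout aortas and 65.8, 53.6, 168, 36.2 and 39.3 CPM in young Pparafl/fl aortas. The ages overlapped in both genotypes, 4 of 10 aged libraries lay above every young one, and the log2 fold change over both genotypes was 2.29 (SE 0.57, edgeR adjusted p = 0.00866). As a description over the 20 libraries, with depth and group shared by the points, the Pearson correlation of log2 CPM was 0.82 between Ighm and Jchain and 0.61 between Igha and Jchain. Ighm was not set apart, as Jchain had 0.844 with Igkc, 0.818 with Ighg3 and 0.802 with Ighg2b. Within the 10 aged libraries Jchain had 0.475 with Ighm, 0.098 with Igha and 0.727 with Ighg3.

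Ighe, the epsilon chain of allergic antibody, had the lowest median per kilobase of the 10 genes in every group. It had 9.13, 5.44, 4.37, 23.9 and 5.19 CPM in knockout aortas and 0.398, 11.03, 68.4, 5.89 and 4.08 CPM in Pparafl/fl aortas at 28 months. There were 0, 0.743, 0.666, 0 and 0 CPM in young knockout aortas and 0.330, 0.619, 0.124, 0.857 and 0.0597 CPM in young Pparafl/fl aortas. The counts of 0 allow up to 3 counts, or 0.0465 to 0.0568 CPM. Of the aged libraries, 9 of 10 lay above every young one, with replicate 1 of Pparafl/fl inside the young range, and the log2 fold change over both genotypes was 5.35 (SE 1.02, edgeR adjusted p = 0.00157).

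Igkc, which most mouse antibodies use as their light chain, had the highest median per kilobase of the 10 genes in every group. It had 1964, 1089, 9.48, 9276 and 1643 CPM in knockout aortas and 1027, 1271, 8617, 2019 and 2429 CPM in Pparafl/fl aortas at 28 months. There were 0, 106, 68.9, 0 and 81.0 CPM in young knockout aortas and 544, 383, 363, 230 and 151 CPM in young Pparafl/fl aortas. Replicate 3 of the aged knockout was the only aged library below the young maximum, and the log2 fold change over both genotypes was 4.52 (SE 1.21, edgeR adjusted p = 0.0137).

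The 3 low Igkc libraries did not lack kappa variable segments. Igkc over the summed heavy chains was 0.00527 in replicate 3 of the aged knockout and 0 in replicates 1 and 4 of the young knockout, and 0.155 to 0.961 in the other 17 libraries. The summed Igkv segments over the heavy chains were 0.168, 0.130 and 0.187 in those 3 libraries, inside the 0.0795 to 0.224 of all 20. Replicates 1 and 4 of the young knockout held 186 and 499 Igkv counts with no count of Igkc, which allows up to 0.0568 and 0.0465 CPM. Igkc values from these 3 libraries therefore cannot be read as the level of kappa antibody RNA there.

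**Figure D2:**
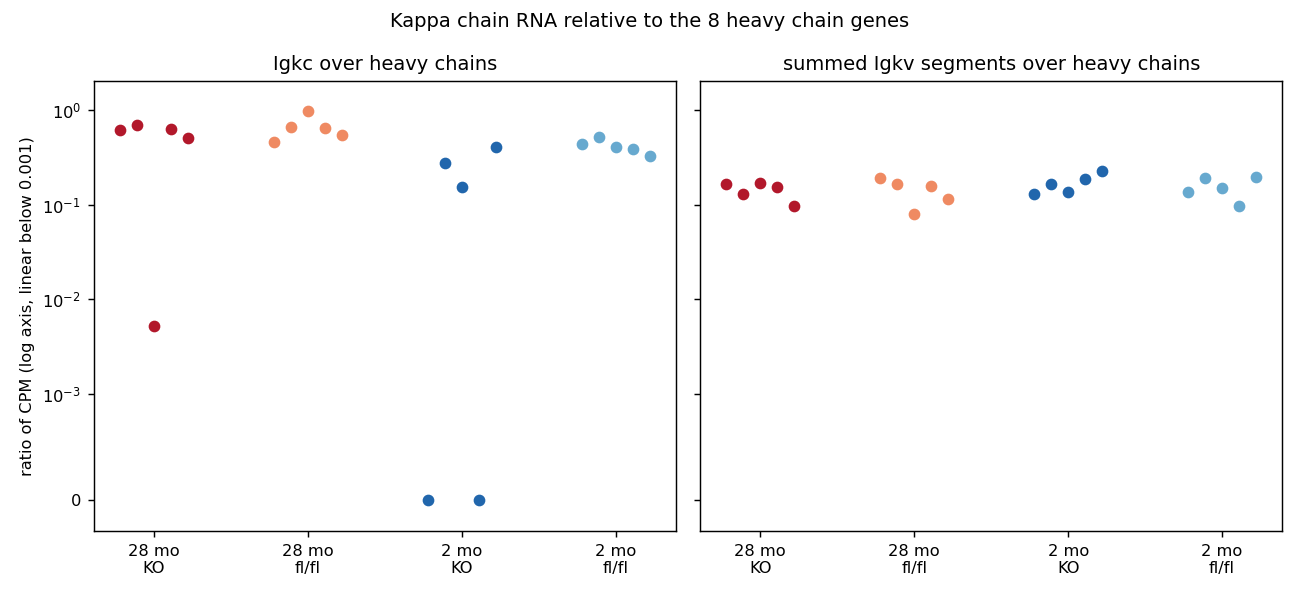
Ratio of Igkc (left) and of the summed Igkv segments (right) to the summed CPM of the 8 heavy chain genes, 1 point per library, by group (log axis, linear below 0.001; KO is the knockout). The 3 libraries at or below 0.00527 on the left lie within the range of the others on the right.

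Within the knockout, age was tested on 5 against 5 aortas. Ighg1, Ighg2b and Ighg2c were called higher, with log2 fold changes of 8.49 (SE 1.53), 6.99 (SE 1.23) and 6.96 (SE 1.01) and edgeR adjusted p of 0.0205, 0.0190 and 0.0111. That is 3 of 10, where 1.87% of 20950 tested genes were called higher, and none was called lower, where 2.59% were (4.46% in either direction). Ighm, Ighe and Jchain had log2 fold changes of 3.85, 5.12 and 3.22 with adjusted p of 0.0574, 0.0669 and 0.0597, and aged and young libraries did not overlap for 5 of 10 genes, all higher at 28 months, against 3.41% of all genes so higher and 5.17% so lower. Without replicate 5 of the young knockout, Ighg2c alone was called, while Ighg1 and Ighg2b had edgeR adjusted p of 0.0560 and 0.0530, and without replicates 1 and 4 of the young knockout no gene of the 10 was. In that last fit the calls over all genes also fell, to 21 higher and 30 lower of 22793, and Ighg1, Ighg2b and Ighg2c had log2 fold changes of 7.76, 6.34 and 6.55.

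Within Pparafl/fl, 7 of 10 were called higher with age and none lower, where 2.06% of 20989 tested genes were called higher and 2.48% lower (4.54% in either direction). Ighg2c had a log2 fold change of 5.70 (SE 0.52, edgeR adjusted p = 0.000789), and Ighg1, Ighg2b and Ighg3 had 6.72, 4.79 and 4.21. Ighm had 1.86 (SE 0.22, edgeR adjusted p = 0.00222), Igkc 3.29 (SE 0.66, edgeR adjusted p = 0.0234) and Ighe 5.61 (SE 1.35, edgeR adjusted p = 0.0450). Ighd, Igha and Jchain had -1.66, -2.02 and 1.40, with adjusted p of 0.0932, 0.177 and 0.139. For 6 of 10 genes the aged libraries all lay above the young ones, against 3.9% of all genes so higher and 5.06% so lower. The call of Ighe was lost in 9 of 10 fits that left out 1 library, that of Igkc in 4 and that of Ighg1 in 3.

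Over both genotypes, 8 of 10 were called higher and none lower, where 9.82% of 23624 tested genes were called higher and 9.3% lower (19.1% in either direction). Their median log2 fold change was 4.25, against 0.10 for all tested genes. None of the 8 calls was lost in any of the 20 fits that left out 1 library. The call of Igkc includes the low libraries described above. All these age comparisons use the same 20 libraries and are not independent of one another or of the genotype comparisons.

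The age difference of the IgG genes was also present where the airway gene was low. Scgb1a1 was at most 1 CPM in 2 aged libraries, replicate 5 of each genotype, which had 0.175 CPM in the knockout and 0.123 CPM in Pparafl/fl. These 2 had 843 and 810 CPM of Ighg1, 1001 and 1132 CPM of Ighg2b and 555 and 869 CPM of Ighg2c, in the knockout and in Pparafl/fl in that order. The 9 young libraries with at most 1 CPM of Scgb1a1 had at most 18.6, 73.4 and 23.2 CPM of these 3 genes. In the fit without the 9 libraries, Ighg1, Ighg2b, Ighg2c and Ighg3 were called over both genotypes, with log2 fold changes of 7.60, 5.65, 5.61 and 4.61. The same 4 genes were called with the airway or the adipocyte marker mean as a covariate. Over all genes, these 3 fits called 70 of 26938, 75 of 23624 and 200 of 23624 higher. Without the 9 libraries Ighm, Ighe, Igkc and Jchain were not called, with log2 fold changes of 2.21, 3.61, 3.92 and 1.95 and edgeR adjusted p of 0.0816, 0.196, 0.157 and 0.131. Both aged libraries left still lay above the young ones left for Ighm, Ighe and Igkc. With 1 aged knockout library left, no gene of the 10 was called within the knockout.

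**Figure D3:**
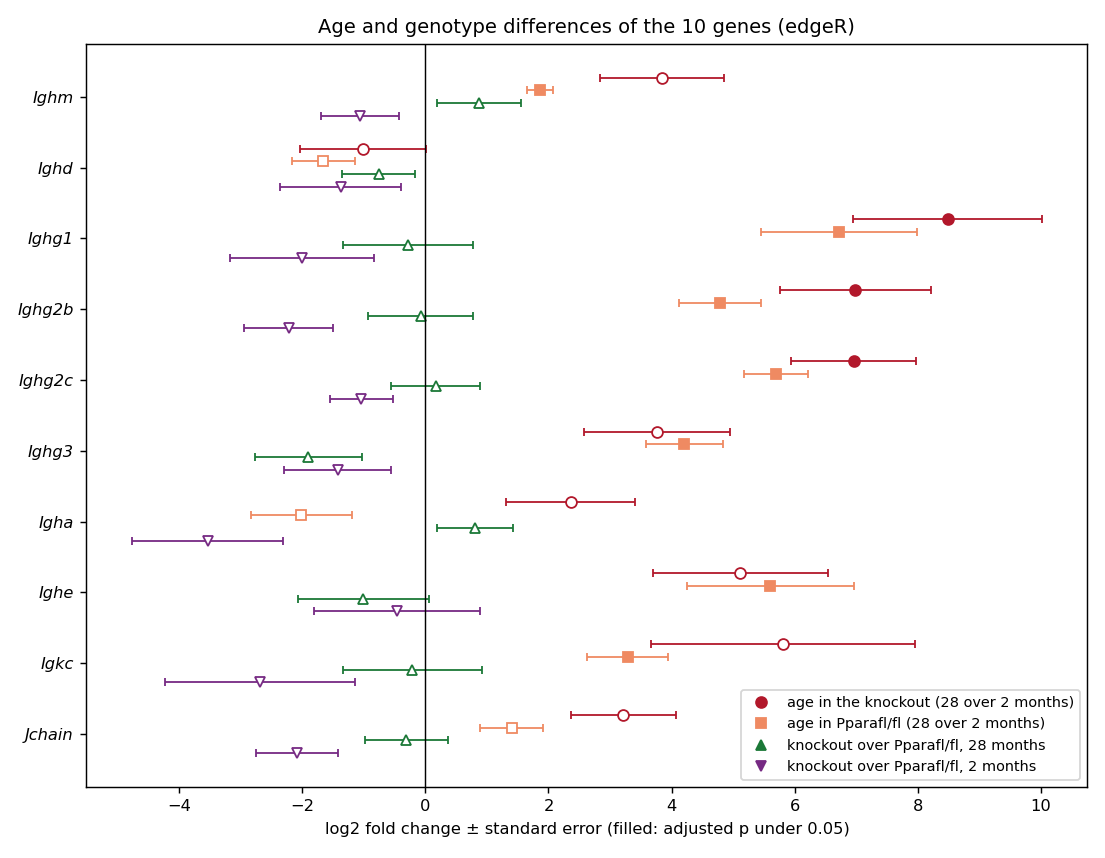
Log2 fold change ± standard error of each gene in the 4 pairwise comparisons, 5 against 5 libraries each. Filled symbols passed an edgeR adjusted p under 0.05. All filled symbols are age comparisons, from 1.86 for Ighm in Pparafl/fl to 8.49 for Ighg1 in the knockout.

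At 28 months, none of the 10 genes passed the edgeR test between the knockout and Pparafl/fl, and none of the 21468 tested genes was called (0%). The lowest unadjusted p among the members was 0.0528, for Ighg3, with a log2 fold change of -1.90 (SE 0.87, edgeR adjusted p = 0.9998), so no member was under 0.05, while 689 of all tested genes were. DESeq2 called none of the 10 either, and 113 genes higher and 123 lower of 34747. All 10 overlapped between the genotypes, where 0.252% of all genes lay higher and 0.321% lower without overlap. The log2 fold changes of Ighm, Ighg2b, Ighg2c and Igkc were 0.88 (SE 0.68), -0.08 (SE 0.86), 0.17 (SE 0.73) and -0.21 (SE 1.13). Those of the last 3 were smaller than their standard errors. All 4 turned sign when some 1 library was left out, with ranges of -0.45 to 1.15 for Ighm, -1.33 to 0.60 for Ighg2b, -1.08 to 0.79 for Ighg2c and -1.47 to 0.74 for Igkc. In the authors' deposited table Ighg3 had a signed fold change of -3.74. Its p-value in the authors' test, 0.0200, was the lowest given there for a member.

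At 2 months, all 10 genes had a lower mean in the knockout, but none passed the edgeR test, where 0.00485% of 20598 genes were called lower and 0% higher. Jchain had a log2 fold change of -2.09 (SE 0.67, edgeR adjusted p = 0.354), Ighg2b of -2.23 (SE 0.72, edgeR adjusted p = 0.366) and Igha of -3.54 (SE 1.23, edgeR adjusted p = 0.397). These were the 3 members with an unadjusted p under 0.05, and DESeq2 called the same 3 lower, with 284 genes higher and 173 lower of 33118 in all. Ighg2b and Igkc did not overlap between the genotypes, 2 of 10, against 1.19% of all genes that lay lower and 1.38% that lay higher without overlap. For Igkc this includes replicates 1 and 4 of the young knockout, whose Igkc counts cannot be read as kappa RNA. The other young knockout libraries had at most 106 CPM of Igkc, against at least 151 CPM in young Pparafl/fl. Without replicates 1 and 4 of the young knockout, Igha had -2.84, Ighg2b -1.58 and Jchain -1.58, with edgeR adjusted p of 0.872, 0.784 and 0.868. In the authors' deposited table the signed fold changes of Igha, Jchain, Ighg2b and Ighg2c were -11.7, -4.29, -4.695 and -2.07. The p-values of the authors' test were 0.000307, 0.000796, 0.000803 and 0.0401, and those of the other members were above 0.05.

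Replicates 1 and 4 of the young knockout were low in other lymphocyte genes as well. Their summed B cell markers were 189 and 180 CPM, against 479 to 1206 CPM in the other 3 young knockout libraries and 850 to 1456 CPM in young Pparafl/fl. Their summed T and NK cell markers were 9.49 and 15.9 CPM, against 60.9 to 282 CPM in the other 3 and 207 to 333 CPM in young Pparafl/fl. The part of these differences in the result at 2 months was not tested. In whole tissue, fewer cells of a type and less RNA per cell cannot be told apart.

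The test of whether age acted differently in the genotypes called none of the 10 genes and none of 23624 in all (0%), with 1432 genes under an unadjusted p of 0.05. Igha was the one member among them, with a log2 difference between the age effects, knockout minus Pparafl/fl, of 4.37 (SE 1.41, edgeR adjusted p = 0.759). DESeq2 called none of the members in it, and 244 genes higher and 273 lower of 36884.

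The makeup of the heavy chain RNA also differed between ages, which is described here without a test. Per kilobase of secreted-form transcript, the 4 IgG genes held a median of 74.1% of heavy chain counts in knockout aortas (range 41.1 to 81.5%) and 71.2% in Pparafl/fl aortas (59.1 to 90.9%) at 28 months. At 2 months they held 15.9% in knockout aortas (7.46 to 25.2%) and 8.66% in Pparafl/fl aortas (5.58 to 25.6%). The IgD share was 1.12% in knockout and 1.40% in Pparafl/fl aortas at 28 months, and 24.9% in both at 2 months, as medians of 5. The IgG to IgM ratio was at least 0.778 in every aged library and at most 0.603 in every young one.

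IgA took its largest share in young Pparafl/fl. Its median was 3.15% in knockout and 1.65% in Pparafl/fl aortas at 28 months, and 7.30% in knockout and 29.9% in Pparafl/fl aortas at 2 months, where it ran from 7.04 to 70.6%. IgM held a median of 17.3% in knockout and 24.2% in Pparafl/fl aortas at 28 months, and 55.5% in knockout and 33.6% in Pparafl/fl aortas at 2 months. Which IgG led differed between aged libraries. IgG1 ran from 5.61 to 46.5% in the knockout and from 1.23 to 33.5% in Pparafl/fl, and IgG2b from 15.2 to 31.7% in the knockout and from 13.3 to 44.4% in Pparafl/fl.

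**Figure D4:**
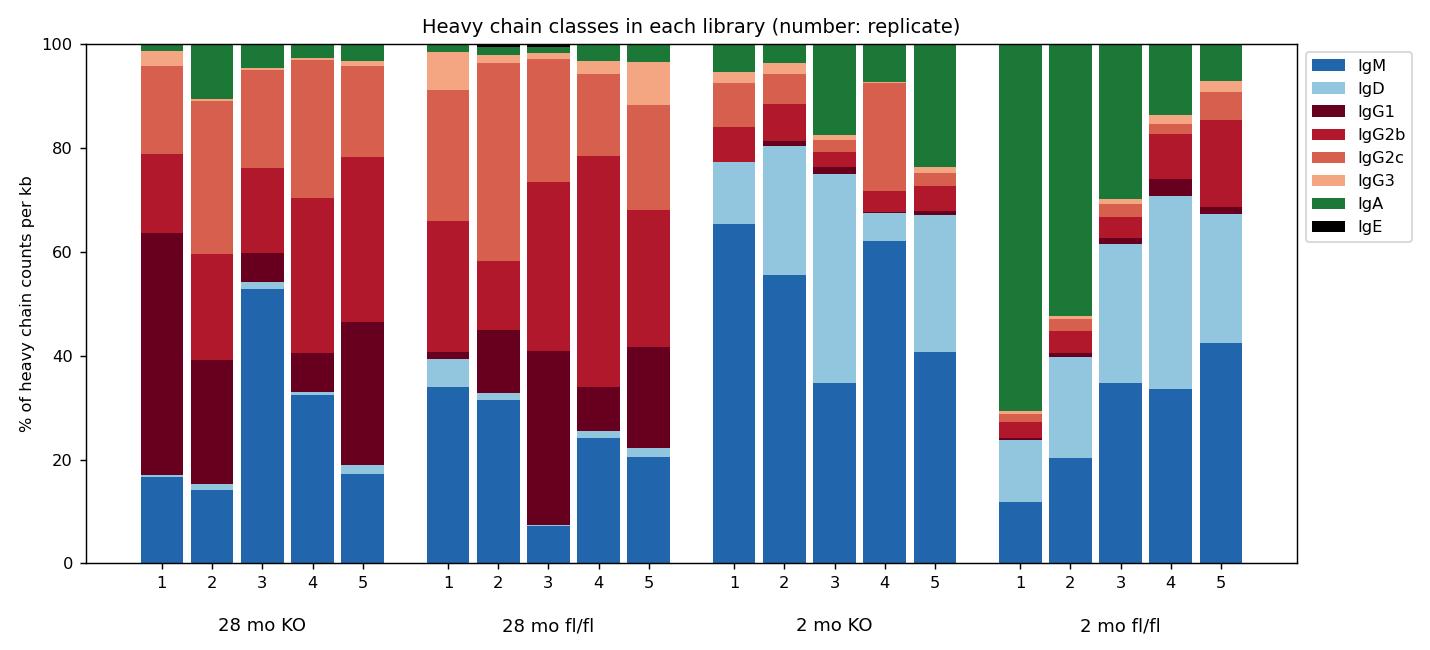
Share of each heavy chain class in the summed heavy chain counts per kilobase, 1 bar per library, with the replicate number under it and KO for the knockout. The IgG colours fill 41.1 to 90.9% of the aged bars and 5.58 to 25.6% of the young bars.

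Together the 10 genes took up 0.213 to 2.79% of all counts in the aged knockout, 0.320 to 1.89% in aged Pparafl/fl, 0.00284 to 0.0538% in the young knockout and 0.0603 to 0.184% in young Pparafl/fl. The 2.79% of replicate 4 of the aged knockout had a 95% Wilson interval of 2.78 to 2.79%, and the 0.00284% of replicate 1 of the young knockout one of 0.00270 to 0.00298%. Reads are not independent molecules, so these intervals cover counting error only.

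Some genes of plasma cell identity rose with age. Of 14 tested over both genotypes, 6 were called higher and none lower, where 9.82% of all tested genes were called higher and 9.3% lower. The median log2 fold change of the 14 was 1.00. Mzb1, a chaperone of antibody assembly, averaged 34.0 ± 35.9 CPM at 28 months and 3.71 ± 2.40 CPM at 2 months (SD, n = 10 each). Its log2 fold change was 3.23 (SE 0.68, edgeR adjusted p = 0.00304). It was higher in 10 of 10 aged libraries than in any young one, as were 0.389% of all tested genes. Prdm1, which encodes the plasma cell regulator Blimp-1, had 1.15 (SE 0.20, edgeR adjusted p = 0.000779) and Derl3, of the degradation of misfolded secretory proteins, 1.38 (SE 0.33, edgeR adjusted p = 0.00657). Pou2af1, Cd38 and Slamf7 were the other 3 called. The summed plasma cell markers overlapped between ages. They spanned 452 to 1120 CPM in the aged and 447.5 to 591 CPM in the young knockout, with medians of 559 and 509 CPM. In Pparafl/fl they spanned 459 to 1478 CPM at 28 months and 601 to 1313 CPM at 2 months, with medians of 662 and 695 CPM. Mzb1 was also called within each genotype, but it lost that call in 9 of 10 fits that left out 1 library in the knockout and in 4 of 10 in Pparafl/fl. Without the libraries with Scgb1a1 above 1 CPM, edgeR called none of the 14, with 5 under an unadjusted p of 0.05. Over all genes that fit called 70 higher and 101 lower of 26938. Without replicates 1 and 4 of the young knockout 4 were called, where 1798 of 25630 genes were called higher and 1691 lower. Both list counts were added after seeing the data.

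B cell identity genes did not pass the test in either direction. None of 20 was called by edgeR over both genotypes, with 1 under an unadjusted p of 0.05, while DESeq2 called 1 lower. Over both genotypes their median log2 fold change was 0.20, while it was 1.04 within the knockout and -0.51 within Pparafl/fl. Of all 23624 genes tested over both genotypes, edgeR called 9.82% higher and 9.3% lower, and 7644 were under an unadjusted p of 0.05. Ebf1, a B cell factor that fat and stromal cells also express, averaged 117 ± 21.0 CPM at 28 months and 128 ± 24.2 CPM at 2 months (SD, n = 10 each; log2 fold change -0.13, SE 0.13, edgeR adjusted p = 0.513). The summed B cell markers spanned 457 to 1966 CPM in the aged knockout, 404 to 946 CPM in aged Pparafl/fl, 180 to 1206 CPM in the young knockout and 850 to 1456 CPM in young Pparafl/fl, and overlapped between ages. No gene of the plasma cell and B cell lists was at 0 in all 5 libraries of a group.

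Among germinal centre and switching genes, 1 of 8 was called, the cell cycle gene Mki67, with a log2 fold change of 2.08 (SE 0.58, edgeR adjusted p = 0.0173). That edgeR count is near the share over all genes. Of 23624 tested genes edgeR called 9.82% higher and 9.3% lower, and 7644 were under an unadjusted p of 0.05. DESeq2 called 3 of the 8 higher and none lower, against 3758 higher and 2761 lower of 36884 genes. Mki67 lost its edgeR call in 1 of 20 fits that left out 1 library. Of 16 genes of the secretory pathway, edgeR called none higher, with 5 under an unadjusted p of 0.05 in either direction, and DESeq2 called 2 higher and 2 lower. Those that edgeR called lower were the folding factors Hspa5 at -0.86 (SE 0.21, edgeR adjusted p = 0.00750) and Pdia6 at -0.73 (SE 0.19, edgeR adjusted p = 0.0104). Of 6 tested genes of age-associated B cells, Cd86 and Tbx21 were called higher, at 1.60 and 0.93, and Tbx21 lost its call in 9 of 20 fits that left out 1 library. None of 9 MHC class II genes was called by edgeR or DESeq2, with 0 under an unadjusted p of 0.05. None of 15 T and NK cell genes was called by edgeR, with 3 under an unadjusted p of 0.05, and DESeq2 called 2 higher.

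Receptors and carriers of antibody moved in both directions. Of 10 tested, 4 were called higher and 1 lower over both genotypes, where 9.82% of all tested genes were called higher and 9.3% lower. Pigr, the epithelial carrier of polymeric IgA and IgM, had a log2 fold change of 5.67 (SE 0.95, edgeR adjusted p = 0.000616), and its CPM was 0.382 and 5.14 in the 2 aged libraries with at most 1 CPM of Scgb1a1 and 3.03 to 73.4 in the other 8. Fcgrt, the heavy chain of the neonatal Fc receptor that protects IgG from breakdown, averaged 104 ± 28.4 CPM at 28 months and 200 ± 30.2 CPM at 2 months (SD, n = 10 each). Its log2 fold change was -0.94 (SE 0.15, edgeR adjusted p = 0.000400). It was lower in 10 of 10 aged libraries than in any young one, as were 0.804% of all tested genes. Fcer1a, of the high-affinity IgE receptor, had 3.35 (SE 0.63, edgeR adjusted p = 0.00146), and the IgG receptor genes Fcgr2b and Fcgr4 had 1.00 and 1.13.

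Of 19 survival and homing signals, 3 were called higher over both genotypes, where 9.82% of all tested genes were called higher and 9.3% lower. That edgeR count is little above the share over all genes. DESeq2 called 6 of the 19 higher and none lower, against 3758 higher and 2761 lower of 36884 genes. Il21, a T cell cytokine that drives plasma cell formation, had a log2 fold change of 3.58 (SE 0.87, edgeR adjusted p = 0.00759), Cxcl13, which draws B cells, 1.88 (SE 0.57, edgeR adjusted p = 0.0270) and Tnfsf13b, which encodes the B cell survival factor BAFF, 1.02 (SE 0.32, edgeR adjusted p = 0.0314). The calls of Cxcl13 and Tnfsf13b were lost in 3 and 6 of 20 fits that left out 1 library. In the same comparison 4 of 11 macrophage genes and 13 of 14 tested airway genes were called higher, and all 8 contractile smooth muscle genes and 5 of 9 adipocyte genes lower. Summed airway markers spanned 265 to 7144 CPM in the aged knockout, 158 to 5530 CPM in aged Pparafl/fl, 121 to 331 CPM in the young knockout and 48.0 to 213 CPM in young Pparafl/fl. Summed adipocyte markers spanned 2693 to 8179, 3297 to 8305, 6144 to 10970 and 8687 to 10300 CPM in the same groups. Without the libraries with Scgb1a1 above 1 CPM, edgeR called no gene of the germinal centre, secretory, age-associated B cell, receptor, survival and macrophage lists. In that order, 2, 5, 3, 4, 1 and 4 genes were under an unadjusted p of 0.05. Over all genes that fit, with 2 aged libraries, called 70 higher and 101 lower of 26938, and 4342 were under an unadjusted p of 0.05. So few calls over all genes leave little room for calls in short lists. The part of those libraries and of the airway and adipocyte markers in the results above was not tested.

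**Figure D5:**
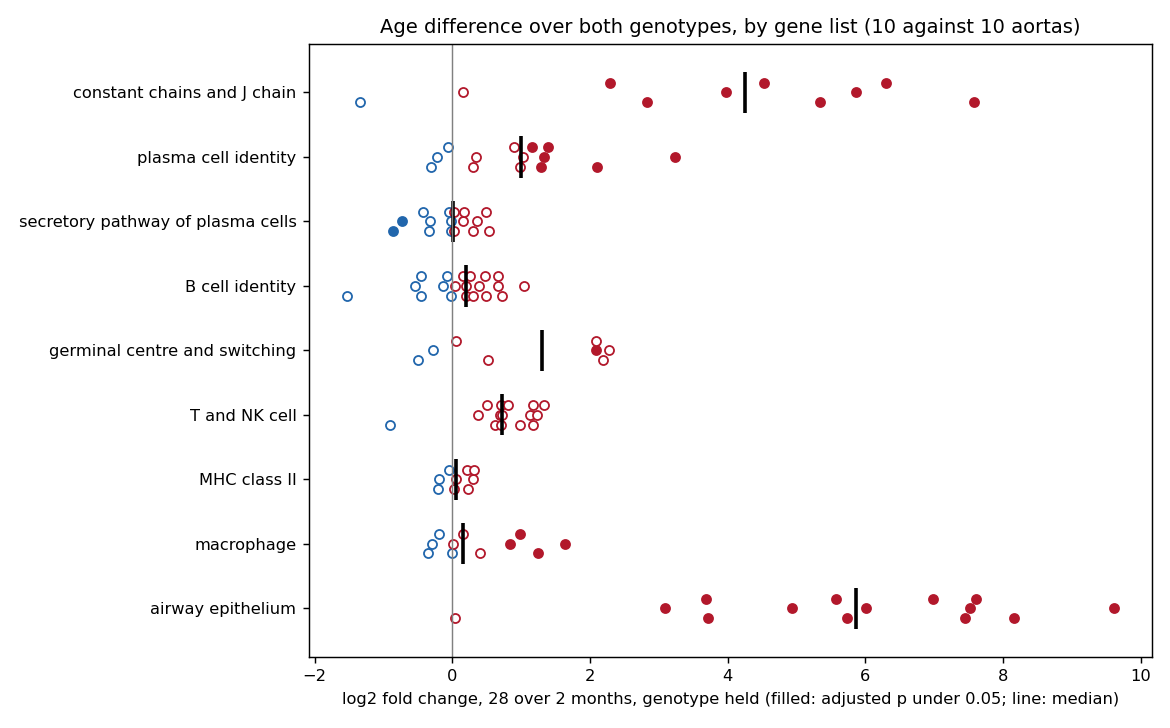
Log2 fold change of each gene in 9 lists, 28 over 2 months over both genotypes (10 against 10 libraries). Filled points passed an edgeR adjusted p under 0.05 and black lines are list medians. The constant chains have a median of 4.25, plasma cell identity 1.00 and B cell identity 0.20.

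Of the lambda constant genes, Iglc1 was called higher with age over both genotypes, with a log2 fold change of 6.75 (SE 1.76, edgeR adjusted p = 0.0118), but had 0 to 230 CPM in the aged knockout and lost the call without replicate 4 of that group (edgeR adjusted p = 0.365). Iglc2 and Iglc3 were not called over both genotypes, and Iglc3 was too low to be tested within either genotype.

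The variable segments, which supply the antigen-binding part, were led by 1 segment in some aged aortas. The leading Ighv segment took 17.1 to 26.6% of Ighv counts in the aged knockout, 9.03 to 55.9% in aged Pparafl/fl, 5.95 to 29.6% in the young knockout and 8.67 to 13.3% in young Pparafl/fl. Ighv1-69 led in replicate 4 of aged Pparafl/fl with 55.9% (95% Wilson interval 55.4 to 56.4%), and the 29.6% of replicate 4 of the young knockout rested on 433 Ighv counts. Igkv6-20 took 58.6% of Igkv counts in replicate 4 of the aged knockout (58.4 to 58.8%) and 43.1% in replicate 4 of aged Pparafl/fl (42.5 to 43.7%). The leading Igkv segment took 8.31 to 58.6% in the aged knockout (median 12.4%) and 11.1 to 43.1% in aged Pparafl/fl (median 14.7%). It took 7.24 to 27.4% in the young knockout (median 15.6%) and 11.6 to 19.5% in young Pparafl/fl (median 13.9%).

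The genes whose log2 CPM followed the mean of the members other than Igkc most closely over the 20 libraries were ranked among 23422 genes that are no immunoglobulin gene, as a description in which group and depth are shared by the points. Hpse, which encodes heparanase, had the highest Pearson correlation, 0.948 over the 20 libraries and 0.948 within the 10 aged ones. The next were Naip2, Naip5, Cd300lf and Il18r1, at 0.942, 0.940, 0.930 and 0.929, and within the aged libraries these had 0.690, 0.707, 0.500 and 0.538. Gm21188, Ctse, St14, Gm16026 and Tgm1 followed at 0.920 to 0.928. Hpse had 32.9, 19.6, 17.1, 108 and 38.4 CPM in knockout and 18.9, 26.5, 50.5, 42.8 and 41.2 CPM in Pparafl/fl aortas at 28 months. There were 4.72, 15.05, 15.03, 3.18 and 9.19 CPM in young knockout aortas and 22.2, 19.2, 26.4, 16.8 and 17.5 CPM in young Pparafl/fl aortas, and 4 of 5 young Pparafl/fl libraries lay within the aged range.

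Single members had other nearest genes. For Jchain these were Ctss, Naip1 and Pou2af1, at 0.896, 0.887 and 0.870. For Ighm they were Il18r1, Serpina3g and Serpina3f, at 0.956, 0.946 and 0.946, and for Ighg2c Rad18, Gm16028 and C130026I21Rik, at 0.936, 0.931 and 0.931. Among 182 variable segments, Igkv16-104, Igkv3-4, Ighv1-78, Ighv7-3 and Ighv1-58 were nearest to the mean of the members, at 0.898, 0.843, 0.822, 0.820 and 0.816.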

How the data were processed

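Tables of whole-aorta RNA-seq counts per gene were used as deposited. Per the submitters' processing notes, HISAT, featureCounts 1.5.0-p3, DESeq 1.8.3 and GRCm38 were named, with no role given for each. The libraries were made with a stranded kit per the labels' protocols, which also speak of RNA from islets although every sample is labelled aorta. Whether counting used strand is not given in the sources used here. The authors' deposited fold changes (a signed score with no value between -1 and 1 per the file headers and values), p-values and group averages (a normalized signal) were not used for tests. Of the 55421 gene IDs, 99.67% were found in GENCODE M21, which gave coordinates and lengths.

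Pairs of groups were fitted with edgeR 4.0.16 in R 4.3.3 (TMM, filterByExpr, quasi-likelihood test, two-sided, adjusted p under 0.05). The interaction and the age effect with genotype held were fitted over 20 libraries with edgeR, with DESeq2 1.42.0 as an alternative. The fit was tested on simulated data. Other alternatives were size factors, filters, marker means as covariates, leaving out each library, and leaving out libraries with Scgb1a1 above 1 CPM. CPM per library used TMM over all 20. Shares per kilobase used the secreted-form transcript. The precision of each value follows its depth of 50046288 counts or more, so that spread between libraries exceeds counting error for all but the counts near 0.

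The genes and lists were chosen with earlier results of these data known. Beside the members, the text names up to 3 called genes of each list by lowest p in each comparison, or the most abundant where none was called, and the genes most like the members by Pearson correlation of log2 CPM.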

Additional observations from a re-analysis of the deposited data

Results flagged for a closer look

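In each group of 5 libraries, the gap between an extreme value and its nearest neighbour, divided by the range, was compared with Dixon's critical value of 0.71. It was exceeded in 10 of 56 groups of values. Dixon's value assumes normally distributed values and independent groups. These CPM values are skewed and the same libraries recur across genes, so no rate by chance applies to this count. Replicate 4 of the knockout at 28 months stood above the rest of its group with 5832 CPM of Ighm, 23.94 CPM of Ighe, 3987 CPM of Ighg2b, 3551 CPM of Ighg2c and 9276 CPM of Igkc. Replicate 3 of Pparafl/fl at 28 months did so with 68.43 CPM of Ighe, 2866 CPM of Ighg1, 2087 CPM of Ighg2c and 8617 CPM of Igkc, and replicate 3 of Pparafl/fl at 2 months with 168 CPM of Jchain. Without the first 2 of these libraries, an alternative added after seeing the data, Ighg1, Ighg2b and Ighg2c kept their calls in both genotypes, with 3 members called in the knockout and 6 in Pparafl/fl, where Ighe lost its call.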

How the results depend on the processing

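The numbers of members called higher depended on the setting. In the knockout 3 were called, and 8 with DESeq2, 7 in 1 fit of 20 libraries, 0 with the airway or the adipocyte mean as a covariate, 0 without the Scgb1a1 libraries, 0 without the young knockout replicates 1 and 4, and 1 to 3 when 1 library was left out. In Pparafl/fl 7 were called, and 3 with the airway or the adipocyte mean, 4 without the Scgb1a1 libraries, which left 1 aged library in each genotype that is assumed to vary like the young ones, and 4 to 7 when 1 library was left out, the lowest without young replicate 3 or 5. Over both genotypes 8 were called, and 4 with the airway mean, with the adipocyte mean, or without the Scgb1a1 libraries. No member was called lower with age, but Ighd was in Pparafl/fl with DESeq2 (1), with the T and NK cell mean (1) and without aged replicate 1 (0 to 1 over libraries left out), and over both genotypes with the T and NK cell mean (1) and without young knockout replicates 1 and 4 (1). At 2 months DESeq2 called 3 lower in the knockout, against 0. The median IgM share of young Pparafl/fl was 33.6%, and 48.1% by the length of all exons and 47.5% without Ighd. Among list genes, Cyp2f2 turned to -0.002 with the airway mean and -0.109 without the Scgb1a1 libraries in the knockout, and Lck to -0.498 with the T and NK cell mean in Pparafl/fl. The genotype comparison at 28 months had 1 library a side without the Scgb1a1 libraries and was not run.

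Over all genes, 934 were called with age in the knockout, and DESeq2 called 1916 higher and 1534 lower, the fit with the airway mean 0 and 1, that with the adipocyte mean 18 and 22, and that without the Scgb1a1 libraries 1 and 2. The fit of 20 libraries called 743 and 734, and that without young knockout replicates 1 and 4 called 21 and 30. In Pparafl/fl 953 were called, against 1980 and 1342, 14 and 65, 26 and 93, and 46 and 136 in the first 4 of these settings. Over both genotypes 4516 were called, against 3758 and 2761, 75 and 301, 200 and 482, and 70 and 101. The cause of these shifts was not tested. No paired analysis was run, because no label links samples of different groups.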
